A study of Mus musculus with 4 samples.

Results

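The collagen and laminin genes of the mouse testis are described here from RNA of males homozygous for a Nef-sp knockout allele and of heterozygous controls. They were chosen by a rule on names, with earlier results of these data known. Members are features counted on the sense strand of exons. Their names are Col, a number, a and a number, or Lama, Lamb or Lamc with a digit. The rule found 34 genes among the 12415 gene exon sense features, of which 25 are collagen genes and 9 are laminin chain genes. Col4a3bp, which encodes a ceramide transporter and only carries a collagen gene in its name, does not match in full and was left out. A further 4 collagen genes, Col10a1, Col11a1, Col19a1 and Col25a1, were counted only in introns or on the opposite strand.

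Testes came from adult mice of the C57Bl/6J background at postnatal day 60, with 2 libraries for each genotype. The Nef-sp gene encodes an RNA exonuclease of the testis, and its knockout allele carries a deletion of 23 bp made with a Cas9 nickase and a pair of guide RNAs. The knockouts, Nef-sp-/-, carry this allele on both chromosomes and the controls, Nef-sp+/-, carry it on 1, so that all libraries come from carriers and none from wild-type mice. The comparison asks whether loss of the remaining Nef-sp copy is accompanied by other levels of matrix transcripts. The labels do not say whether the libraries of a genotype came from separate animals, and p-values therefore measure only the spread between these libraries, which may be technical.

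Collagens are trimers whose chains wind around each other in a triple helix, which repeats a glycine every 3 residues. Fibrillar collagens pack into the cable-like fibrils of connective tissue, while collagen IV forms the sheet-like network of basement membranes. Laminins are trimers of an alpha, a beta and a gamma chain, and they assemble into the other network of basement membranes and bind receptors on the cells above. In the testis, a basement membrane surrounds each seminiferous tubule beneath the Sertoli cells and spermatogonia, and the peritubular myoid cells and interstitial tissue around it hold the fibrillar collagens.

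The glycine repeat can be read in the genes themselves, since a glycine codon is GGN. The fibrillar collagens, the group with the lowest median fold change, are known for exons of 54 bases that hold whole repeats. One such exon is shown for each of 4 of them in the mm9 build, read 5′ to 3′ on the strand of the gene, with capitals for the GGN codon that opens each repeat of 3 codons. The last repeat of Col1a1 holds another GGN codon, which is left in lower case. They are coding exon 8 of Col1a1 (chr11:94801218-94801271, plus strand) and of Col1a2 (chr6:4465481-4465534, plus strand), and coding exon 6 of Col2a1 (chr15:97828976-97829029, minus strand) and of Col3a1 (chr1:45382205-45382258, plus strand).
Col1a1: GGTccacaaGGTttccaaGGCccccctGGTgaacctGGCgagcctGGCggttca
Col1a2: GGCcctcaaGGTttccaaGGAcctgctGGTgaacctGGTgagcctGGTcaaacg
Col2a1: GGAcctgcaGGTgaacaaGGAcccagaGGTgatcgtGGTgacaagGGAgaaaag
Col3a1: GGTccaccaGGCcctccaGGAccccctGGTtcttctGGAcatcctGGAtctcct
Col1a1 and Col1a2 share 42 of these 54 bases position by position, and the other pairs share 27 to 35. Each exon is the first of its gene with this pattern, and exons were not matched by their place in the helix. The shared bases therefore do not measure how alike the genes are.

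Over the longest coding transcript of each gene, the longest run of GGN at every 3 codons was 217 to 344 repeats in the 7 fibrillar collagens, and it exceeded 300 in 6 of them. Collagen IV genes, whose helix is known to be interrupted, had runs of 39 to 66, and the runs of all 25 collagens reached from 28 to 344. The laminin chains, which form a coiled coil and not a collagen helix, had runs of 2 to 3. Fibrillar collagens had 21 to 33 coding exons of exactly 54 bases and laminin chains had 0. Although these repeats look alike, exact stretches of 50 bases in protein-coding transcripts can tell the members apart. Pseudogenes, other genomic sequence and reads shortened by adapter removal were not compared. No stretch of 50 bases was shared between any 2 of the 34 members in protein-coding transcripts. Col4a4 was the only member with stretches found in another gene, 4 of 7807.

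The 4 libraries held between 20659865 and 34442517 reads over all annotation categories, the largest being Nef-sp+/- replicate 2. The Nef-sp gene, annotated as 2610020H08Rik, had 1843 and 1693 normalized exon sense counts in the controls against 407 and 497 in the knockouts. It was low in both libraries labelled as knockouts, with a log2 fold change of −1.97 ± 0.0921 (SE). A normalized count is a read count scaled to a common effective size of the libraries, and pairs of values are given in the order of replicates 1 and 2 throughout. Transcripts of germ cells were present in all libraries, as 8 of 8 germ cell markers passed the expression filter.

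Collagen and laminin genes were a small part of testis RNA. Their reads numbered 3874 and 6737 in the controls against 3453 and 3350 in the knockouts. Per 1000000 gene exon sense reads, this was 245 and 253 in the controls against 211 and 212 in the knockouts. Both Nef-sp-/- libraries were thus below both controls, and the log2 ratio of the mean shares was −0.23, or −0.32 when Col16a1, the member with the most reads, was left out. The filter on low counts was passed by 28 of the 34 genes, with 59 to 3632 reads each over the 4 libraries. The other 6, Col4a6, Col5a2, Col6a2, Col8a1, Lama4 and Lama5, had 9 to 36 reads in all and at most 11 in a library. Fitted without the filter, none of these 6 passed the adjusted threshold of edgeR, and 1 of them, Col6a2, had an unadjusted p below 0.05.

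By the quasi-likelihood test of edgeR, 0 of the 28 genes passed an adjusted p of 0.05, as against 1 of 10728 gene exon sense features (0.00932%), which was the Nef-sp gene. Adjusted p-values of the members lay between 0.859 and 0.999. An unadjusted p below 0.05 was found for 8 of the 28 genes, all with lower levels in Nef-sp-/-, where 2.83% of all features tested were lower at this p. These 8 were Col1a1, Col1a2, Col2a1, Col3a1, Col4a1, Col4a5, Lama2 and Lamb2. In the other direction 0 members reached this p, where 1.97% of all features did. With the library size taken over all categories and no TMM scaling, 434 features were lower and 139 higher at this p, and 10 and 0 of the members. DESeq2 called 0 members and 2 of all features (0.0186%), and 3 of the 8, Col1a2, Col4a1 and Lamb2, had an unadjusted p below 0.05 in it. In testis RNA, fewer cells of a type and less RNA per cell cannot be told apart.

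Without regard to a test, the normalized counts of both Nef-sp-/- libraries lay below both Nef-sp+/- libraries for 13 of the 28 genes (46.4%), against 18.1% of all features tested. They lay above both for 1 gene, Col16a1, against 16.4% of all features. The log2 fold change was negative for 23 genes (82.1%), against 50.1% of all features, and its median was −0.21, against −0.0002 over all features. The 21 collagens tested had a median of −0.21 with 17 negative values, and the 7 laminin chains had −0.19 with 6 negative values. Summed over all 34 members, normalized counts were 4459 and 4744 in the controls against 3988 and 3964 in the knockouts, a ratio of 1.16 of controls to knockouts.

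**Figure D1:**
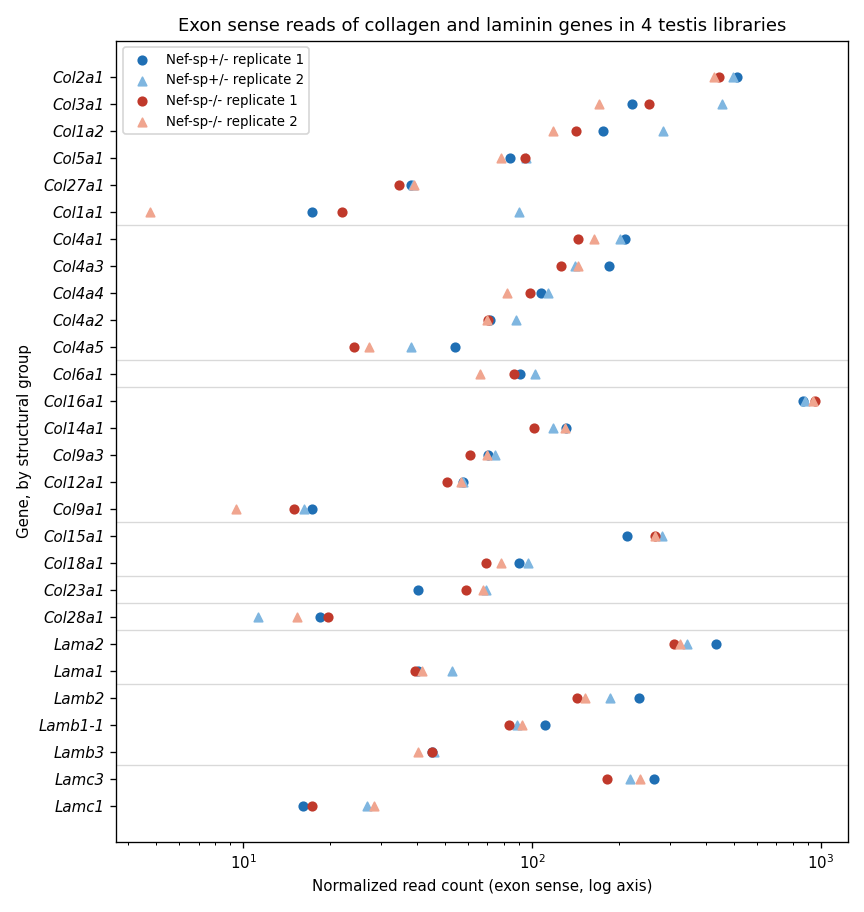
Normalized exon sense read counts (log axis) of the 28 genes that passed the filter, by structural group, with 1 point for each of the 4 libraries. Both Nef-sp-/- points lie left of both Nef-sp+/- points for 13 genes, Col16a1 has the highest counts, and Col1a1 has the widest spread, from 4.73 to 90.1.

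The fibrillar collagens included the lowest fold changes, and several of them varied as much between libraries of a genotype as between genotypes. Col1a2 (chr6:4454814-4491543, plus strand), which encodes a chain of type I collagen, had 176 and 284 normalized counts in the controls against 142 and 118 in the knockouts. The 4 libraries did not overlap between genotypes, and Nef-sp+/- replicate 2 stood well above the rest. Its log2 fold change was −0.87 ± 0.205 (SE), with the smallest unadjusted p of the members and an adjusted p of 0.859.

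Col1a1 (chr11:94797538-94814356, plus strand), which encodes the partner chain of Col1a2, had 17.3 and 90.1 normalized counts in the controls against 21.9 and 4.73 in the knockouts. The genotypes overlapped, since Nef-sp-/- replicate 1 exceeded Nef-sp+/- replicate 1, and the raw counts behind these values were 15, 128, 19 and 4 reads. The log2 fold change of −2.17 ± 0.711 (SE) was the lowest of all 10728 features tested, below that of the Nef-sp gene. Without Nef-sp+/- replicate 2 it was −0.36, with an adjusted p of 0.959 in edgeR.

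Col3a1 (chr1:45368383-45406551, plus strand), the single chain of collagen III, accompanies type I collagen in the fibrils of soft tissues. It had 222 and 456 normalized counts in the controls against 254 and 170 in the knockouts, which overlapped in the same way as those of Col1a1. The log2 fold change was −0.73 ± 0.277 (SE), and −0.06 without Nef-sp+/- replicate 2.

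Together, Col1a1, Col1a2 and Col3a1 summed to 415 and 830 normalized counts in the controls against 418 and 293 in the knockouts. Nef-sp+/- replicate 2 exceeded the sum of both Nef-sp-/- libraries, whereas Nef-sp+/- replicate 1 was within their range. When Nef-sp+/- replicate 1 was left out, these 3 genes passed the adjusted threshold of edgeR, with log2 fold changes of −2.73 for Col1a1, −1.12 for Col1a2 and −1.10 for Col3a1, where 0.376% of all features passed and 0.303% were lower. In that fit the control group is a single library, assumed to vary as the Nef-sp-/- libraries do. Without Nef-sp+/- replicate 2, none of the 3 passed, and Col1a2 had a log2 fold change of −0.43 with an adjusted p of 0.298.

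Col2a1 (chr15:97806033-97835155, minus strand), known as the main fibrillar collagen of cartilage, behaved differently from these 3 genes. Its normalized counts were 513 and 497 in the controls against 443 and 428 in the knockouts, close within each genotype and without overlap. The log2 fold change was −0.21 ± 0.0776 (SE), and it stayed between −0.24 and −0.18 when any 1 library was left out. The remaining fibrillar collagens tested, Col5a1, which helps to set fibril diameter, and Col27a1, had log2 fold changes of −0.07 and −0.06, with overlapping genotypes, and both took the other sign in at least 1 fit without a library. Of the 6 fibrillar collagens tested, 4 had an unadjusted p below 0.05 in edgeR. All 6 had a negative log2 fold change, with a median of −0.47. Over all features tested, 2.83% were lower at that p and 50.1% had a negative value.

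**Figure D2:**
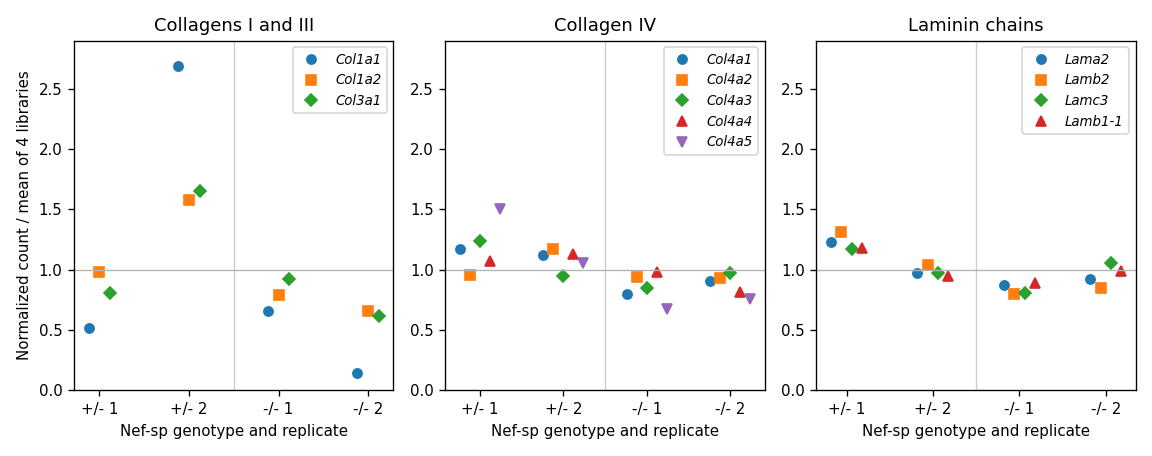
Normalized counts of 3 sets of genes in each library, divided by the gene's own mean over the 4 libraries. Col1a1, Col1a2, Col3a1, Col4a2 and Col4a4 are highest in Nef-sp+/- replicate 2, while the 4 laminin chains shown, Col4a1, Col4a3 and Col4a5 are highest in Nef-sp+/- replicate 1.

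Among the collagen IV genes, all 5 that were tested had negative log2 fold changes, with a median of −0.30, where 50.1% of all features were negative. Col4a1 (chr8:11198423-11312826, minus strand) encodes a chain of the collagen IV network found in nearly all basement membranes. It had 211 and 202 normalized counts in the controls against 144 and 163 in the knockouts. The gap between genotypes was wider than the gap between replicates. Its log2 fold change was −0.42 ± 0.118 (SE), with an adjusted p of 0.954 in edgeR, and without any 1 library it stayed between −0.51 and −0.33.

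Col4a2, which encodes the partner chain of Col4a1, had 71.4 and 88.0 normalized counts in the controls against 70.4 and 69.8 in the knockouts. Both Nef-sp-/- libraries were below the controls by a narrow margin, at a log2 fold change of −0.21 ± 0.174 (SE), which was −0.0246 without Nef-sp+/- replicate 2 and −0.33 without Nef-sp+/- replicate 1. These genes lie head to head on chromosome 8 and their annotated first exons overlap by 22 bases on opposite strands (chr8:11312805-11312826).

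Col4a3, Col4a4 and Col4a5 encode the chains of a more specialised network, known from the kidney glomerulus and also found around seminiferous tubules. Col4a5 (chrX:137909928-138123778, plus strand) had 54.1 and 38.0 normalized counts in the controls against 24.3 and 27.2 in the knockouts, from raw counts of 47, 54, 21 and 23 reads. The genotypes did not overlap, and the log2 fold change was −0.79 ± 0.267 (SE). It stayed between −1.07 and −0.56 when any 1 library was left out.

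For Col4a3, the normalized counts were 184 and 141 in the controls against 126 and 144 in the knockouts. The genotypes overlapped narrowly, and the log2 fold change was −0.24 ± 0.156 (SE), or −0.0599 without Nef-sp+/- replicate 1 and −0.45 without Nef-sp+/- replicate 2. Col4a4 had a log2 fold change of −0.30 ± 0.153 (SE) without overlap, from 107 and 113 to 98.2 and 81.6 normalized counts. These genes are also head to head, and their annotated starts on chromosome 1 are separated by 71 bases (chr1:82583425-82583495). Col4a6, whose gene lies 1308 bases from that of Col4a5 on the X chromosome, had only 2 to 8 reads per library. Summed over the 6 collagen IV genes, normalized counts were 630 and 587 in the controls against 472 and 491 in the knockouts.

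Of the 7 laminin chains tested, 6 had negative log2 fold changes and 2 an unadjusted p below 0.05 in edgeR, both lower in Nef-sp-/-. Over all features tested, 50.1% were negative and 2.83% were lower at that p. A different control library stood highest for most of these laminin chains. Lama2 (chr10:26701094-27336748, minus strand) encodes the alpha chain of the laminin of muscle and peripheral nerve. It had 434 and 343 normalized counts in the controls against 309 and 325 in the knockouts. Both Nef-sp-/- libraries were below the controls, of which replicate 2 lay close to them. The log2 fold change was −0.27 ± 0.116 (SE) and the adjusted p was 0.954 in edgeR.

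Lamb2 (chr9:108382193-108392861, plus strand), the beta chain of synaptic and glomerular laminins, had 235 and 186 normalized counts in the controls against 143 and 153 in the knockouts. The genotypes did not overlap, and the log2 fold change was −0.48 ± 0.139 (SE). Without Nef-sp+/- replicate 2, Lama2 and Lamb2 passed the adjusted threshold, at −0.45 (adjusted p = 0.0176) and −0.67 (adjusted p = 0.00582) on the log2 scale in edgeR, where 2.32% of all features passed. Of these 252 features, 221 were higher and 31 lower in Nef-sp-/-, so that 0.285% of all features passed in the direction of both genes. Without Nef-sp+/- replicate 1, the log2 fold changes were −0.11 for Lama2 and −0.33 for Lamb2, and neither passed. In each of these fits, the controls are again a single library.

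Lamc3, a gamma chain, had 264 and 218 normalized counts in the controls against 181 and 237 in the knockouts. These overlapped, with a log2 fold change of −0.19 ± 0.142 (SE), which was −0.00667 without Nef-sp-/- replicate 1 and −0.39 without Nef-sp-/- replicate 2. Lamb1-1, the older symbol of Lamb1, had 110 and 88.7 normalized counts in the controls against 83.1 and 92.3 in the knockouts, also with overlap and a log2 fold change of −0.16 ± 0.167 (SE). That value was −0.0164 without Nef-sp+/- replicate 1 and −0.33 without Nef-sp+/- replicate 2. Lamc3 and Lamb1-1 were highest in Nef-sp+/- replicate 1, as Lama2 and Lamb2 were.

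Lama1, the alpha chain of embryonic basement membranes, had 40.3 and 52.8 normalized counts in the controls against 39.3 and 41.4 in the knockouts. Lamc1, the gamma chain of most known laminins, had 16.1 and 26.8 in the controls against 17.3 and 28.4 in the knockouts. In both genes the genotypes overlapped. The log2 fold changes were −0.25 ± 0.222 (SE) for Lama1 and 0.01 ± 0.346 (SE) for Lamc1, and each took the other sign in at least 1 fit without a library, Lamc1 also with the library size over all categories. Lamb3, an epithelial beta chain, had a log2 fold change of −0.09 with overlapping genotypes.

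The 2 control libraries therefore differed in which matrix genes were high. Lama2, Lamb2 and Lamc3 summed to 932 and 747 normalized counts in the controls against 634 and 715 in the knockouts, with replicate 1 of the controls highest. Of the 28 genes tested, 10 had their highest value in Nef-sp+/- replicate 1 and 14 in Nef-sp+/- replicate 2, with 2 each in the Nef-sp-/- libraries. Over all features tested, 27.2% and 22.6% were highest in the control libraries and 24.8% and 25.4% in the knockout libraries. Leaving out Col1a1, Col1a2 and Col3a1, the other 31 members summed to 4043 and 3914 normalized counts in the controls against 3570 and 3670 in the knockouts. The ratio of controls to knockouts was then 1.10.

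**Figure D3:**
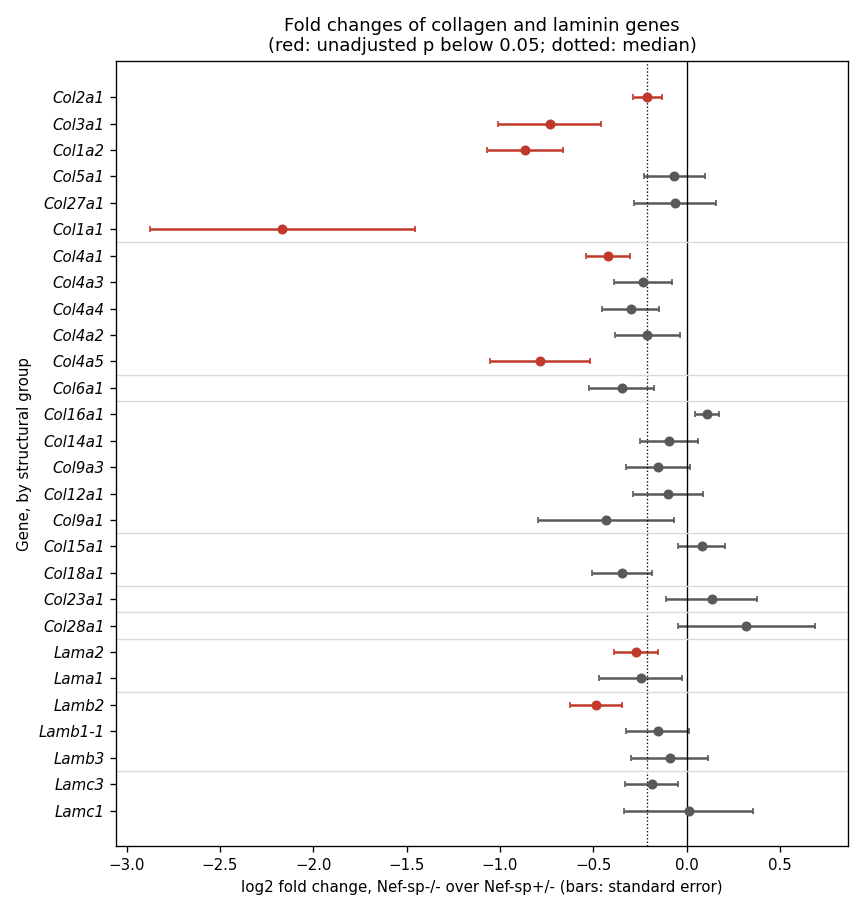
log2 fold changes of Nef-sp-/- over Nef-sp+/- for the 28 genes tested, with bars of 1 standard error, by structural group. Red marks the 8 genes with an unadjusted p below 0.05, all left of 0, and the dotted line is the median of −0.21. Col1a1 has the lowest value and the longest bar, and 0 of the genes passed the adjusted threshold.

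The FACIT collagens, which sit on the surface of fibrils and do not form fibrils themselves, showed small differences. Col16a1 (chr4:129725084-129776527, plus strand), the most abundant of all members, had 871 and 883 normalized counts in the controls against 952 and 943 in the knockouts. It was the only member tested with both Nef-sp-/- libraries above both controls, by a log2 fold change of 0.11 ± 0.0647 (SE) and an adjusted p of 0.954 in edgeR. Col14a1 had 131 and 118 normalized counts in the controls against 102 and 130 in the knockouts, which overlapped, and its log2 fold change was −0.10 ± 0.154 (SE). The other 3, Col9a1, Col9a3 and Col12a1, had both Nef-sp-/- libraries below the controls, at log2 fold changes of −0.43 to −0.10 with standard errors of 0.172 to 0.363.

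Col15a1 and Col18a1 encode collagens of the basement membrane zone whose ends can be released as fragments that act on blood vessels. Col15a1 had 214 and 282 normalized counts in Nef-sp+/- and 267 in each Nef-sp-/- library, between both controls. For Col18a1 the counts were 89.8 and 96.5 in the controls against 69.3 and 78.1 in the knockouts, without overlap. The log2 fold changes were 0.08 ± 0.128 (SE) for Col15a1 and −0.35 ± 0.160 (SE) for Col18a1.

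Of the beaded filament collagens, Col6a1 had 90.9 and 102 normalized counts in the controls against 86.6 and 66.3 in the knockouts, without overlap and with a log2 fold change of −0.35 ± 0.173 (SE). It was −0.17 without Nef-sp-/- replicate 2 and −0.56 without Nef-sp-/- replicate 1. Its partner chain Col6a2 had 4 and 9 raw reads in the controls against 2 and 0 in the knockouts, below the filter. Fitted without a filter, it had a log2 fold change of −2.16 ± 0.937 (SE), with an adjusted p of 0.961 in edgeR, which made 9 members with an unadjusted p below 0.05 in that fit. Col23a1, a transmembrane collagen, had 40.3 and 69.0 normalized counts in the controls against 58.9 and 67.4 in the knockouts. Col28a1, a collagen with von Willebrand factor domains, had 18.4 and 11.3 in the controls against 19.6 and 15.4 in the knockouts. Both overlapped between genotypes, with log2 fold changes of 0.13 ± 0.243 (SE) and 0.32 ± 0.366 (SE).

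Levels of different genes can be compared only per length, here as reads per kilobase of annotated exon and per 1000000 exon sense reads of effective library size, averaged over the 4 libraries. Col16a1 led with 7.26, followed by Col2a1 with 4.19 and Col15a1 with 2.18. Then came Lamc3 with 1.98, Lama2 with 1.95, Col3a1 with 1.76, Lamb2 with 1.71 and Col4a1 with 1.42. Col16a1 and Col2a1 were each above all genes that follow them in every library. From Col15a1 to Col4a1, the libraries of each gene overlapped with those of the next in this order. At the low end Col5a2 had 0.0133.

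Within the chains that assemble with each other, Col4a1 exceeded Col4a2 by 1.99 to 2.87 times per length in each library, and Col4a3 exceeded Col4a4 by 1.04 to 1.48 times. Laminin chains were compared within the alpha, beta or gamma class, of which a trimer holds a single chain each. Lama2 exceeded Lama1 by 6.35 to 10.5 times, Lamb2 exceeded Lamb1-1 by 2.92 to 3.75 times, and Lamc3 exceeded Lamc1 by 11.1 to 22.2 times. The ratio of Col1a2 to Col1a1 ranged from 1.70 in Nef-sp+/- replicate 2 to 13.5 in Nef-sp-/- replicate 2, while that of Col3a1 to Col1a2 ranged from 1.83 to 2.59. The exons of all annotated transcripts were joined, to 12145 bases for Col1a2 and 6563 bases for Col1a1, and a gene with many partial transcripts is given a lower level per length by this.

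**Figure D4:**
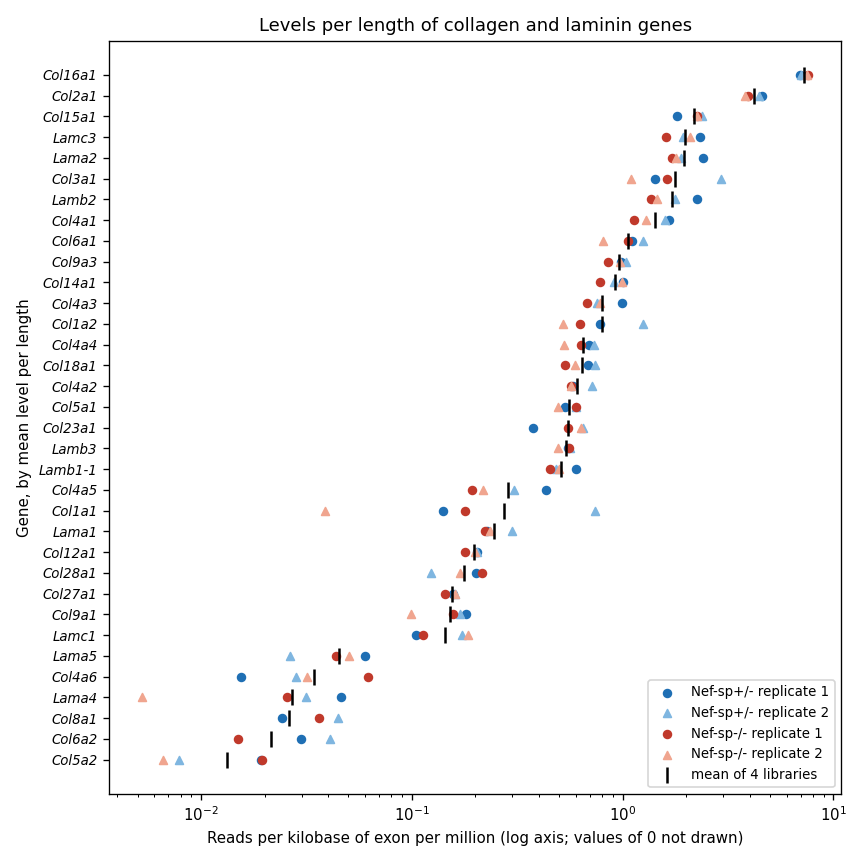
Reads per kilobase of exon and per 1000000 exon sense reads (log axis) of the 34 genes, ordered by the mean of the 4 libraries, with a point for each library and a bar for the mean. Values of 0 are not drawn. The levels reach from 7.26 for Col16a1 to 0.0133 for Col5a2, and the 6 genes below the filter are the lowest.

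The introns and opposite strands of these genes gave other readouts from the same libraries. Sense reads in introns passed the filter for 3 members, Col5a1, Col15a1 and Col16a1. Of these, 0 had an adjusted or unadjusted p below 0.05 in edgeR and 0 an adjusted p below 0.05 in DESeq2. Of all 3403 intron sense features tested in edgeR, 1 passed the adjusted threshold and 80 had an unadjusted p below 0.05. The value of 0 among 3 members therefore does not set them apart. Intron sense reads of Col16a1 were 367 and 355 normalized counts in the controls against 396 and 447 in the knockouts. The direction was that of its exons, without overlap, at a log2 fold change of 0.23 ± 0.143 (SE).

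The most reads outside exon sense were antisense reads in the intron of Lamc1 and the exons of Col9a3. Lamc1 intron antisense reads had 2545 and 2842 normalized counts in the controls against 2871 and 2786 in the knockouts, which overlapped. A pseudogene, Gm8818, is annotated on that strand within the intron (chr1:155152562-155153608). Col9a3 exon antisense reads had 1978 and 1967 in the controls against 2075 and 2089 in the knockouts, above both controls by a log2 fold change of 0.08 ± 0.0737 (SE). The end of Col9a3 shares 234 bases with exons of Tcfl5, a germ cell transcription factor gene on the opposite strand (chr2:180356661-180356894), so that these reads and those of Tcfl5 cannot be told apart by position. By contrast, the sense exons of Lamc1 had 14 to 38 reads per library.

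Genes that make, modify, bind or degrade collagens and laminins were read from 6 lists of 70 genes, of which 48 were listed and 33 passed the filter. In edgeR, 0 of the 33 passed the adjusted threshold, 3 had an unadjusted p below 0.05 with lower levels in Nef-sp-/- and 0 with higher levels, beside 2.83% and 1.97% of all features, and DESeq2 called 0. Both Nef-sp-/- libraries were below the controls for 11 and above for 3, beside 18.1% and 16.4% of all features, and the median log2 fold change was −0.07.

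Pcolce, which enhances the cleavage of procollagen, had 796 and 772 normalized counts in the controls against 636 and 687 in the knockouts, a log2 fold change of −0.24 ± 0.0722 (SE). Dcn encodes decorin, a proteoglycan on collagen fibrils, and had 958 and 930 in the controls against 803 and 790 in the knockouts, a log2 fold change of −0.24 ± 0.0661 (SE). Sparc, a collagen-binding protein of basement membranes, had 6794 and 6431 in the controls against 5940 and 6088 in the knockouts, a log2 fold change of −0.14 ± 0.0596 (SE). In these 3 genes the genotypes did not overlap and the replicates were closer to each other than in Col1a1, Col1a2 and Col3a1. The 3 were named for a small p, which favours close replicates without overlap, so that this trait is no separate support.

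Among 12 tested genes of collagen folding and modification, 0 had an unadjusted p below 0.05, and the smallest was that of P4ha1, a subunit of the prolyl hydroxylase. It had 249 normalized counts in each control against 289 and 283 in the knockouts, a log2 fold change of 0.20 ± 0.0938 (SE). The 8 receptors tested also had 0, with the smallest p for the integrin gene Itga11, at 16.1 and 18.3 normalized counts in the controls against 5.77 and 14.2 in the knockouts. Of 2 genes of matrix degradation, Timp2, a protease inhibitor, had the smaller p, with 2537 and 2534 in the controls against 2367 and 2422 in the knockouts.

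Markers of the cells that can make matrix, and of other cells of the testis, were summed for each library. Of 5 markers of interstitial fibroblast-like cells, 3 were listed, and their normalized counts summed to 311 and 307 in the controls against 247 and 295 in the knockouts. Within them, Pdgfra, a growth factor receptor of such cells, had 208 and 187 in the controls against 149 and 172 in the knockouts, without overlap. Mfap5 overlapped, with 102 and 120 in the controls against 97.0 and 118 in the knockouts, and Tcf21 was near 0, with 0 and 0.704 in the controls against 1.15 and 4.73 in the knockouts. Leydig cell markers, 7 of 7 listed, summed to 19396 and 19577 in the controls against 18533 and 16105 in the knockouts, with Cyp11a1 and Cyp17a1 lower at an unadjusted p below 0.05. The other 5 had log2 fold changes above 0, the median of the 7 was 0.08, and without Cyp11a1 and Cyp17a1 the sums overlapped, at 5269 and 6119 in the controls against 6363 and 5733 in the knockouts. Red blood cell markers, 3 of 5 listed, summed to 471 and 545 in the controls against 435 and 454 in the knockouts, and Hba-a2 alone had 238 and 332 in the controls against 194 and 200 in the knockouts. Alas2 of the same list was higher in both knockout libraries, with 218 and 187 in the controls against 226 and 244 in the knockouts. Hbb-b1 overlapped, with 15.0 and 26.1 in the controls against 15.0 and 10.6 in the knockouts. Like Col1a1, Col1a2 and Col3a1, Hba-a2 and Hbb-b1 were highest in Nef-sp+/- replicate 2, and Alas2 was not. Over all features tested, 22.6% were highest in that library. Both interstitial markers that passed the filter had negative log2 fold changes. These were −0.29 for Pdgfra, at an unadjusted p below 0.05 in edgeR, and −0.07 for Mfap5, while Tcf21 did not pass it. The markers within the Leydig and red blood cell lists differed in direction. What part any of these cells had in the lower matrix counts was not tested.

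The sums of the other lists overlapped between the genotypes. The 6 markers of peritubular myoid and smooth muscle cells summed to 6357 and 7168 in the controls against 7077 and 6920 in the knockouts, and Actg2 made up most of each sum. Without it, a choice made after the values were seen, the other 5 summed to 1426 and 1388 in the controls against 1236 and 1361 in the knockouts, without overlap. Acta2, the actin of smooth muscle and myoid cells, had 883 and 818 in the controls against 725 and 788 in the knockouts. It made up most of the sum without Actg2, and all other markers of the list overlapped between the genotypes. Their log2 fold changes were −0.07 for Myh11, −0.02 for Cnn1, 0.06 for Tagln and 0.09 for Actg2, and Des did not pass the filter. The part of these cells in the lower matrix counts was not tested either. Sertoli cell markers, 6 of 8 listed, summed to 18145 and 18151 in the controls against 17851 and 18687 in the knockouts, with Fshr at 0 in Nef-sp-/- replicate 1. Macrophage markers, 4 of 5 listed, summed to 877 and 861 in the controls against 851 and 1007 in the knockouts. Endothelial markers, 5 of 6 listed, summed to 52.9 and 71.1 in the controls against 57.7 and 57.98 in the knockouts, with Tie1 at 0 in Nef-sp-/- replicate 1. Germ cell markers summed to 328960 in Nef-sp+/- replicate 1 and to 399848, 405133 and 395881 in Nef-sp+/- replicate 2 and Nef-sp-/- replicates 1 and 2. Nef-sp+/- replicate 1, in which Lama2, Lamb2, Lamc3 and Lamb1-1 were highest, was the lowest in this sum, which Prm1, Prm2, Tnp1 and Tnp2 of late spermatids dominate. The other 4 germ cell markers summed to 20028 and 19363 in the controls against 19107 and 19674 in the knockouts, highest in the same library. The part of the low spermatid transcripts of that library in the laminin values was not tested. Tnp1 had 60173 and 69754 in the controls against 74025 and 72979 in the knockouts, higher at an unadjusted p below 0.05 in edgeR. Tnp2 was also above both controls in both knockout libraries. Ddx4 was below both controls in both, and the other germ cell markers overlapped.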

How the data were processed

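Testis RNA was sequenced in 2 libraries for each of the genotypes Nef-sp-/- and Nef-sp+/- after removal of ribosomal RNA, with strand kept, for 50 cycles. Using in-house tools and mm9, the authors retained perfectly matching reads, and they deposited raw counts per feature, annotation category and strand. How reads with several matches were assigned is not given in the sources used here. The authors' DESeq2 columns (mean signal, fold change, p and adjusted p) were not used. Genotype and replicate number came from the labels.

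Counts of gene exon sense features were fitted with edgeR 4.0.16 in R 4.3.3 (quasi-likelihood test, TMM, filterByExpr with a minimum count of 10, no covariate) and p-values were adjusted by Benjamini-Hochberg over all features tested. Libraries held 20659865 to 34442517 reads over all categories, and the fit used 15809298 to 26608585 gene exon sense reads of each. Between replicates, the chi-square per degree of freedom over features was 8.53 in Nef-sp+/- and 3.52 in Nef-sp-/-, so that replicates differed by more than counting noise. Intron and antisense categories were fitted separately. Exon lengths, positions and sequences came from GENCODE vM1 on mm9, and 34 of 34 members matched, 1 through a RefSeq synonym. The test was run on simulated counts with the same variability for all features and changes in well-covered features only. That check does not show how the test behaves for members that vary widely between replicates, such as Col1a1. Figures were drawn with matplotlib.

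Named with every library's value were the 2 members with the highest mean count in each structural group with a tested member, the 8 with the smallest p and any called. Col4a2 and Col4a4 were added after their values were seen. Of each list of other matrix genes, those with an unadjusted p below 0.05 or otherwise the smallest p were named. Members, lists and tests were chosen with earlier results of these data known. The alternatives were DESeq2 size factors, library size over all categories without TMM, other filters, DESeq2 1.42.0, a fit over all categories, a replicate block, and each library left out. Marker sums without their dominant genes were added after the values were seen.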

Additional observations from a re-analysis of the deposited data

How the results depend on the processing

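The call of 0 members, 0 other matrix genes and 0 members in introns was the same in the 7 fits on all 4 libraries. Over these fits, 138 of 139 fold changes of the 20 members named and tested kept their direction and side of the threshold, the exception being Lamc1 with −0.00904 when the library size over all categories was used without TMM. DESeq2 called 2 gene exon sense features. In the fits without 1 of the libraries, the count of features called ranged from 1 to 252 and that of members from 0 to 3, all of them without a Nef-sp+/- library. The median log2 fold change of the members ranged from −0.24 to −0.19. The log2 ratio of the members' share of reads was −0.32 without Col16a1 and ranged from −0.26 to −0.21 without 1 library. Fold changes that took the other sign without a library ranged from −0.0759 to 0.32 for Col15a1, −0.13 to 0.65 for Col23a1, −0.0700 to 0.63 for Col28a1, −0.28 to 0.0739 for Col14a1, −0.39 to 0.00196 for Lama1, −0.38 to 0.50 for Lamc1, −0.21 to 0.0677 for Col5a1 and −0.15 to 0.0227 for Col27a1, and the cause was not tested. All 8 members with an unadjusted p below 0.05 in the main edgeR fit kept a negative sign in every fit in which they were tested. In the 7 fits on all 4 libraries, by edgeR or DESeq2, Col1a2, Col4a1 and Lamb2 kept an unadjusted p below 0.05 in each. These fits reuse the libraries by which the 8 were picked, so this is no independent support.

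The main fit did not pair the libraries by replicate number. The deviations from the genotype means correlated at −0.0909 across features between libraries of the same number. With only 2 libraries per genotype, this value cannot show whether libraries of the same number were prepared together. With a replicate block, 0 members and 1 feature were called and the median of the members was −0.20. With 2 libraries per genotype, and 59 to 3632 reads per gene tested, small differences are not resolved, and Col1a1 rests on 4 to 128 reads per library.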
